A study of Mus musculus with 8 samples.

Results

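The genes described here are 44 genes of protein folding, translocation and quality control in the endoplasmic reticulum (ER), read in RNA sequencing libraries of naive B cells from mouse spleens. They were chosen by name, as the rows of the deposited table whose symbol is on a list of ER chaperones, disulfide enzymes, translocation subunits, retrieval receptors, degradation factors and stress sensors. All 44 were found among the 23302 entries, and all 44 passed the filter of a mean of at least 10 normalized counts that left 13011 genes for testing. The libraries came from C57BL/6 mice in 4 groups of 2, namely BEBi3-/- with a tumor, BEBi3-/- without a tumor, WT with a tumor and WT without a tumor. BEBi3-/- is the series' name for the genotype that the sample labels write as B-EBi3-. Neither the Cre line nor the age, nor pooling of animals, is given in the sources used here. The nontumor groups carry WT as their tumor status in the labels, a reading on which all tumor comparisons rest.

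Secreted and membrane proteins enter the ER through the Sec61 channel, lose their signal peptide and fold with the help of chaperones and of enzymes that form disulfide bonds. Chains that fail to fold are drawn back to the cytosol and degraded, which is called ER-associated degradation. When unfolded chains build up, the sensors IRE1 (Ern1), PERK (Eif2ak3) and ATF6 start the unfolded protein response, which raises chaperones and degradation factors and restrains translation. B cells that become antibody-secreting plasma cells enlarge this machinery, and naive B cells carry less of it.

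Many chaperone promoters hold the ER stress response element, ERSE, in which CCAAT and CCACG stand 9 bases apart and through which ATF6 and XBP1 act. The element was looked for on both strands of the RefSeq promoter windows of GRCm38.p6, from 250 bases before to 50 after a gene's start. It was present in 8 of the 34 members that have a window (23.5%) and in 37 of 27025 genes (0.137%). The 8 members were Calr, Canx, Creld2, Dnajc3, Hsp90b1, Hspa5, Pdia6 and Syvn1. A second form, with ATTGG and CCACG 1 base apart, was present in Dnajb11 and Herpud1 and in 12 genes in all (0.0444%). The shorter element TGACGTGG was in 0 of the 34 members and in 0.714% of genes. TGATGNAA, a form of the element bound by ATF4, was in Herpud1 and Kdelr1 and in 4.51% of genes. A match describes the letters only, and many of these genes are the ones from which the element was first described. Of the members with the element in 1 of its forms, 7 were picked because their levels did not move together between the groups. Calr, Dnajc3 and Dnajb11 carry it too and were not picked. Whether the element acts on any of these genes was not tested. The stretches are those of the 7 picked genes. Each is written 5′ to 3′ on the strand of its gene, with the fixed letters of the element in capitals.
Hspa5: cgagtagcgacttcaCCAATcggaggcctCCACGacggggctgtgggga
Hsp90b1: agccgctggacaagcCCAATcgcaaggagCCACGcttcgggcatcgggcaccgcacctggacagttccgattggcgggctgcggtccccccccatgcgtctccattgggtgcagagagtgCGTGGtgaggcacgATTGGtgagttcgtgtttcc
Creld2: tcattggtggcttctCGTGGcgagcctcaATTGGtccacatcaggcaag
Canx: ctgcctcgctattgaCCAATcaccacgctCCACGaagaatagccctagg
Pdia6: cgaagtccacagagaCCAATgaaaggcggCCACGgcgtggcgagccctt
Syvn1: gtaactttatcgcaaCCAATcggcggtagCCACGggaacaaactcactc
Herpud1: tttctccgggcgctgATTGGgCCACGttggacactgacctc

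These stretches lie at chr2:34772010-34772058 (Hspa5, plus strand), chr10:86705518-86705671 (Hsp90b1, minus strand), chr15:88819505-88819553 (Creld2, plus strand), chr11:50325785-50325833 (Canx, minus strand), chr12:17266476-17266524 (Pdia6, plus strand), chr19:6046517-6046565 (Syvn1, plus strand) and chr8:94386362-94386402 (Herpud1, plus strand). Hsp90b1 holds the element in each orientation. In Creld2 it is turned round.

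Depth ran from 21291892 to 28297319 reads per library. Ebi3, the gene named by the genotype, stood at 8.70 and 11.0 normalized counts in BEBi3-/- tumor, 12.8 and 11.5 in BEBi3-/- nontumor, 201 and 164 in WT tumor and 8.94 and 11.0 in WT nontumor, so without a tumor its level does not tell the genotypes apart. The WT tumor libraries stand apart in 2 ways that the groups do not explain. Their titles begin with IV where the other 6 begin with OT. Xist, the RNA that silences an X chromosome, had 19758 and 26191 normalized counts there against at most 18.3 elsewhere, and the Y-linked Eif2s3y had 0 reads there. Every comparison that uses WT tumor carries these differences, and tumor, sex and title prefix cannot be told apart in it. The B cell genes Cd79a and Ms4a1 were never below 45467 and 41392 normalized counts. The 11 macrophage markers together took 0.241 and 0.238% of the reads in BEBi3-/- tumor, 0.357 and 0.447% in BEBi3-/- nontumor, 0.0514 and 0.0457% in WT tumor and 0.384 and 0.410% in WT nontumor. They fell in 10 of 11 cases in BEBi3-/- tumor and in 11 of 11 in WT tumor, and the 11 erythroid markers fell in 11 of 11 cases in each. Granulocyte markers fell in 6 of 8 cases in BEBi3-/- tumor and 8 of 8 in WT tumor, and proliferation genes in 10 of 10 in BEBi3-/- tumor and 8 of 10 in WT tumor. Of 8 T cell markers 1 rose and 1 fell in BEBi3-/- tumor, and 6 fell in WT tumor. None of these markers was at 0 in every library, and the part of such cells in the results was not tested. In these bulk libraries fewer cells of a type and less RNA per cell cannot be told apart.

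Members together took 0.679 ± 0.00194% of the reads in BEBi3-/- tumor, 0.616 ± 0.00492% in BEBi3-/- nontumor, 0.677 ± 4.59e-05% in WT tumor and 0.592 ± 0.0113% in WT nontumor. Normalized counts are instead reads divided by a size factor of each library. These factors were 1.15 and 1.09 in BEBi3-/- tumor and 0.783 and 0.785 in BEBi3-/- nontumor. In WT tumor they were 1.26 and 1.27, and in WT nontumor 0.895 and 0.729. A share of reads can thus be higher where normalized counts are lower. Per kilobase of transcript, averaged over the 8 libraries, the lectin chaperone Calr was highest at 6874 normalized counts, followed by the channel subunit Sec61b at 5288 and the chaperone Hsp90b1 at 5187. The stress sensor Ern1 was lowest at 82.8, and the ubiquitin ligase cofactor Sel1l next at 241. Transcript length here is the median over a gene's annotated coding transcripts, so these levels are rough.

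**Figure D1:**
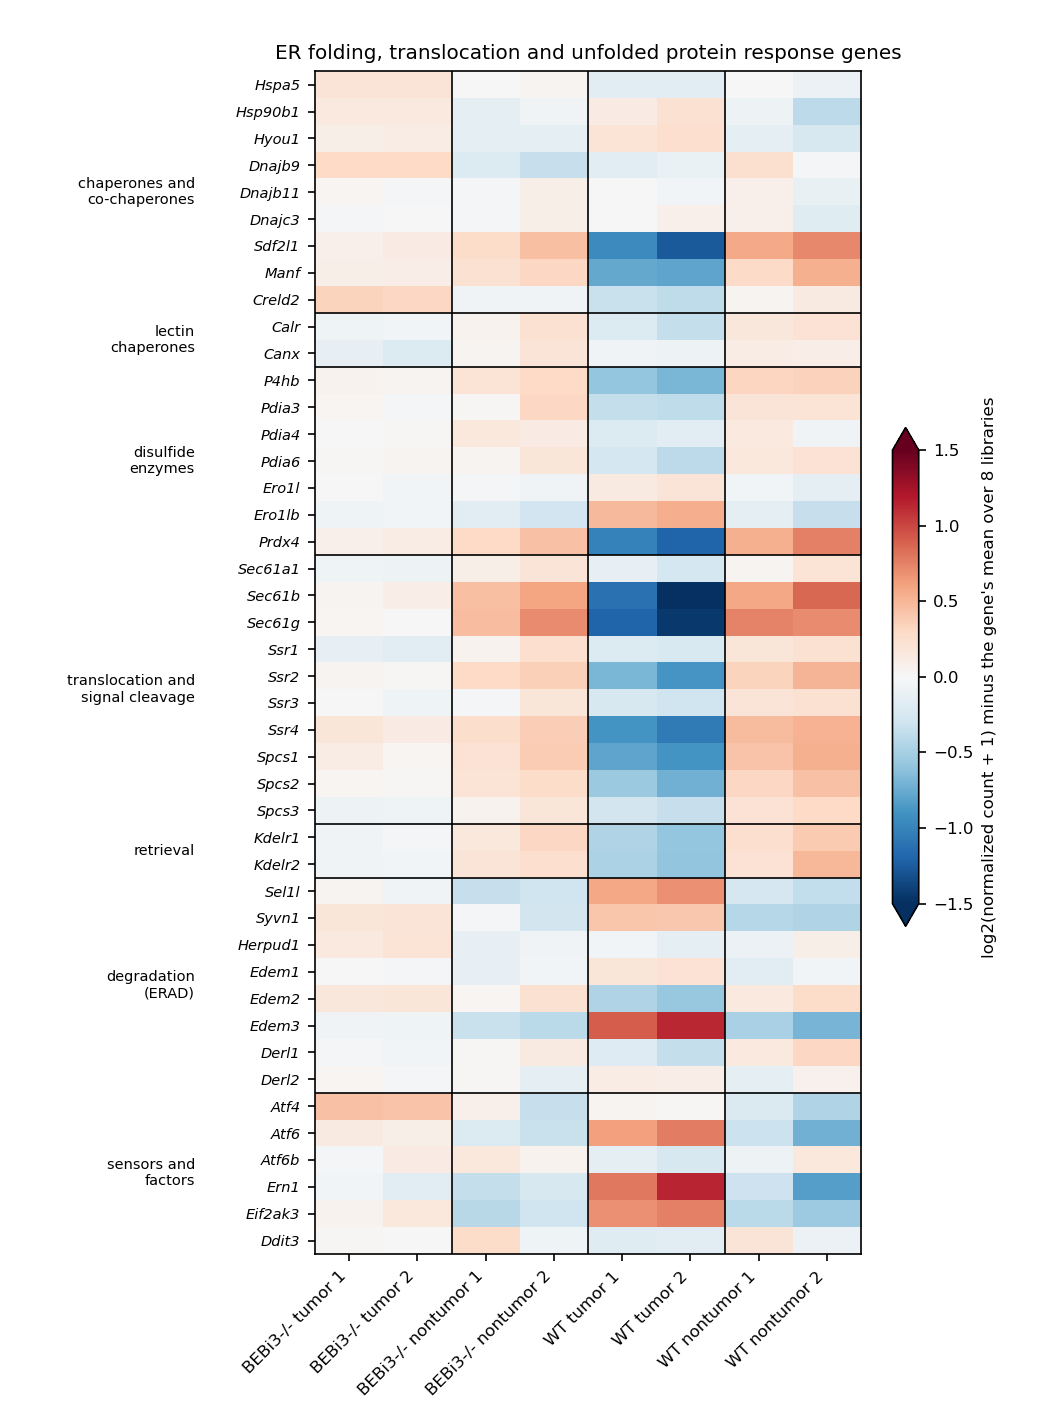
Level of each of the 44 genes (rows, by role) in each of the 8 libraries (columns), as log2(normalized count + 1) minus the gene's mean over the libraries, with red above and blue below it. Both WT tumor libraries stand apart in opposite directions for most of the translocation genes (blue, least for Sec61a1 and Ssr1) and for Edem3, Atf6, Ern1 and Eif2ak3 (red).

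The first comparison sets WT tumor libraries against WT nontumor ones. All 10 translocation and signal cleavage genes fell, as did both retrieval receptors and 5 of 7 disulfide enzymes, whereas 4 of 6 sensors and transcription factors rose and 0 fell. Altogether 12 members rose, 24 fell and 8 did not pass (limma on log2(normalized count + 1), Benjamini-Hochberg adjusted p below 0.05 over all genes tested). Over all genes 39.6% rose and 40.1% fell (79.8% in either direction), so the share of members called is near the background. The median log2 difference was -0.28 for the members and 0.010 for all genes. It is on the scale of normalized counts, whereas the members' share of reads was higher in WT tumor than in WT nontumor.

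Sec61g, the gamma subunit of the channel, had 1441 and 1219 normalized counts in the WT tumor libraries against 5557 and 5460 in WT nontumor (log2 difference -2.05, SE 0.103, limma adjusted p = 7.99e-07), a 4.15-fold lower level. Sec61b, its beta subunit, had 918 and 702 in WT tumor against 2980 and 3641 in WT nontumor (-2.04, SE 0.138, limma adjusted p = 3.05e-06). Sec61a1, which forms the pore itself, stood at 3415 and 3110 in WT tumor and 3822 and 4274 in WT nontumor (-0.31, adjusted p = 0.00751). The libraries of the groups do not overlap for any of these subunits, which holds for 91.4% of all genes tested in this comparison. The pore subunit differed far less than its small partners. Of the translocon-associated proteins, which help chains to enter the channel, Ssr4 fell by 1.48 and Ssr2 by 1.21 on the log2 scale, and Ssr3 by 0.48 and Ssr1 by 0.42. The signal peptidase subunits Spcs1, Spcs2 and Spcs3 fell by 1.32, 1.01 and 0.57. The receptors Kdelr1 and Kdelr2, which return escaped ER proteins from the Golgi, fell by 0.84 and 0.89.

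Among disulfide enzymes the largest fall was in Prdx4, a peroxide-using oxidase of the ER, with 395 and 347 normalized counts in the WT tumor libraries against 1149 and 1348 in WT nontumor (-1.75, SE 0.108, limma adjusted p = 2.01e-06). P4hb, the founding protein disulfide isomerase, had 5056 and 4691 in WT tumor against 9394 and 9598 in WT nontumor (-0.96, SE 0.071, limma adjusted p = 4.53e-06). Its relatives Pdia3, Pdia6 and Pdia4 fell by 0.57, 0.52 and 0.23. The oxidases that recharge these isomerases went the other way. Ero1lb had 6055 and 6349 in WT tumor against 3927 and 3406 in WT nontumor (0.76, adjusted p = 4.53e-05), and Ero1l rose by 0.26 (adjusted p = 0.0130). The call of Pdia4 ended in 9 of 23 alternative settings and that of Ero1l changed in 4.

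Chaperones were divided. Hspa5, the central ER chaperone BiP, had 12132 and 12080 normalized counts in the WT tumor libraries against 13628 and 12821 in WT nontumor and was not past the threshold (-0.13, SE 0.0681, adjusted p = 0.115). Hsp90b1, the ER member of the HSP90 family, rose by 0.41 (adjusted p = 0.00491), and Hyou1, a large HSP70 relative that also exchanges nucleotide on BiP, rose by 0.41 (adjusted p = 0.000538). Sdf2l1, which acts with BiP and its J-domain partner, had 346 and 282 in WT tumor against 1000 and 1110 in WT nontumor (-1.75, SE 0.119, limma adjusted p = 3.16e-06). Manf, a small BiP-binding protein induced by ER stress, fell by 1.19, Creld2, a secreted stress-induced protein, by 0.45 and the lectin chaperone Calr by 0.48. The J-domain proteins Dnajb11 and Dnajc3, which hand substrates to BiP, and the membrane lectin Canx were at -0.0019, 0.09 and -0.18 and did not pass. Dnajb9, a J-domain protein that also holds IRE1 inactive, fell by 0.24 (adjusted p = 0.0434), a call that ended in 13 of 23 alternatives.

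Of the degradation genes 4 rose and 2 fell. Edem3, which trims sugars on misfolded glycoproteins, had 1836 and 2144 normalized counts in the WT tumor libraries against 699 and 605 in WT nontumor (1.61, SE 0.104, limma adjusted p = 2.43e-06), while its relative Edem2 had 1036 and 956 in WT tumor against 1574 and 1718 in WT nontumor (-0.72, adjusted p = 8.64e-05). Syvn1, the ubiquitin ligase HRD1, had 5126 and 5105 in WT tumor against 2857 and 2811 in WT nontumor (0.85, adjusted p = 2.29e-05), and its cofactor Sel1l rose by 0.94. The membrane factor Derl1 fell by 0.50, and Edem1 rose by 0.31. Herpud1 and Derl2, further parts of the ligase complex, were at -0.09 and 0.14 and did not pass.

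All 3 sensors rose. Ern1 had 172 and 218 normalized counts in the WT tumor libraries against 79.4 and 54.9 in WT nontumor (1.54, SE 0.215, limma adjusted p = 0.000169), a 2.90-fold higher level. Eif2ak3 had 3474 and 3671 in WT tumor against 1641 and 1490 in WT nontumor (1.19, SE 0.0831, limma adjusted p = 3.5e-06). Atf6 had 2849 and 3166 in WT tumor against 1488 and 1132 in WT nontumor (1.21, adjusted p = 2.61e-05). The libraries of the groups do not overlap for any of the 3 sensors, as for 91.4% of all genes tested in this comparison. Atf4, the transcription factor translated when PERK is active, had 5325 and 5240 in WT tumor against 4436 and 3764 in WT nontumor (0.37, adjusted p = 0.0274), a call that ended in 6 of 23 alternatives. Its partner Ddit3 (CHOP) and the ATF6 relative Atf6b were both at -0.22 and did not pass.

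**Figure D2:**
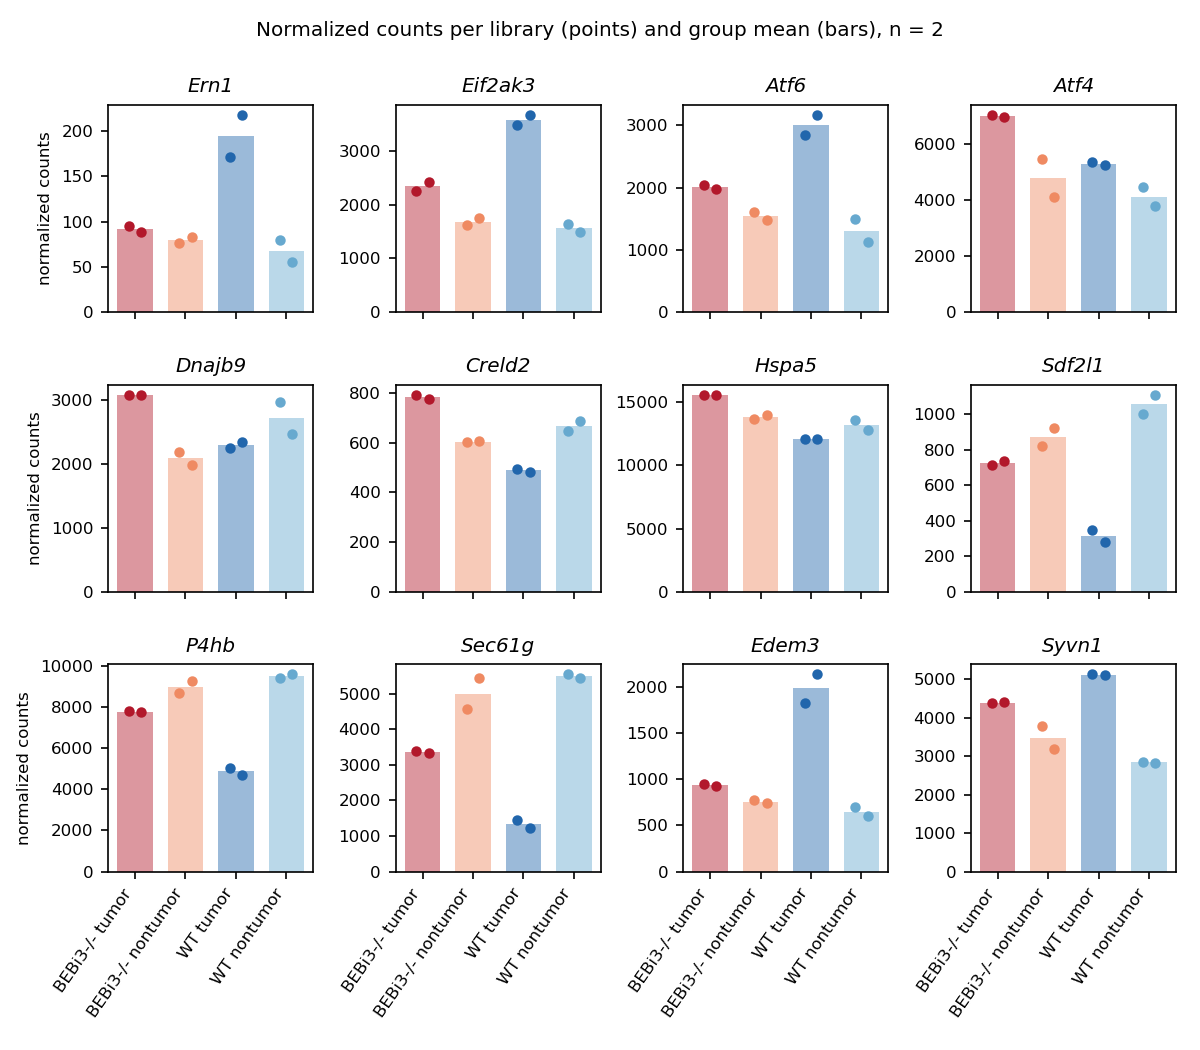
Normalized counts of 12 genes in each library (points, n = 2 per group) with the group mean (bars, from 0). Ern1, Eif2ak3, Atf6 and Edem3 are highest in both WT tumor libraries and Sdf2l1, P4hb and Sec61g lowest there, whereas Dnajb9, Creld2, Hspa5 and Atf4 are highest in both BEBi3-/- tumor libraries.

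The values of this comparison moved with transcript length. Across the 44 members, which do not count as replicates, Spearman's rho between length and log2 difference was 0.620. Over 12868 genes with a known length it was 0.358, and the 2 libraries of each WT group also differed along length (0.262 in WT nontumor and -0.274 in WT tumor, replicate 1 minus replicate 2). Once a smooth trend on length and GC content had been taken out of each library, 30 of the 36 calls held in the same direction, 8 of them rises and 22 falls. With that trend gone, 10 members rose and 26 fell, beside 37.4% and 38.9% of all genes (76.4% in either direction). All 10 translocation genes were among the falls, with a median of -0.74 rather than -1.11. The Sec61 subunits kept their order, but other subunits did not. Spcs3 stood at -1.12, Spcs1 at -0.89 and Spcs2 at -0.62, and Ssr4 at -0.75, Ssr3 at -0.73, Ssr2 at -0.46 and Ssr1 at -0.38. Ern1 (1.88), Eif2ak3 (1.20), Edem3 (1.24) and Syvn1 (0.78) still rose, as did Atf4 (0.93). The difference of Atf6 was 0.11 and that of Sel1l 0.03, and neither passed. The lengths used were annotation medians, 1308.5 bases for Ern1 and 2720 for Eif2ak3 against 7246 for Atf6 and 6150 for Sel1l. Whether these medians match the transcripts present was not tested, so the contrast between these genes without the trend rests on rough lengths. Edem1 turned to -0.56 and Creld2 to 0.03. Hspa5 (-0.52), Canx (-0.80) and Dnajc3 (-0.71) were then past the threshold as falls, and Ddit3 (0.56) and Derl2 (0.26) as rises.

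**Figure D3:**
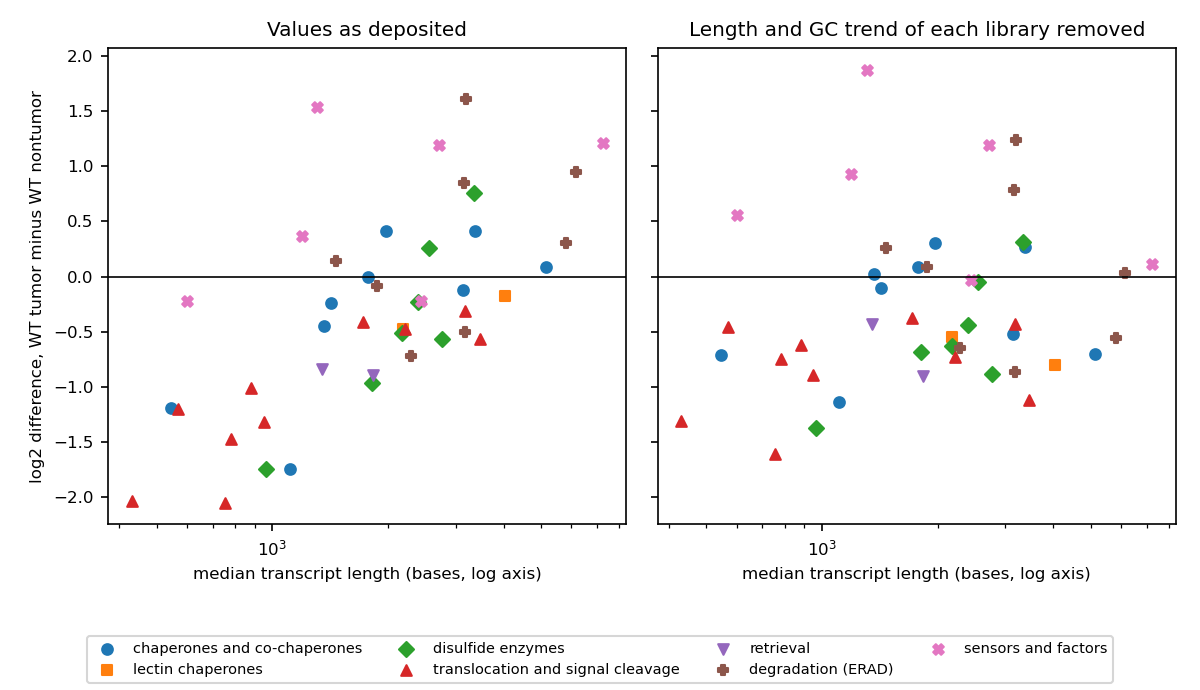
Log2 difference between WT tumor and WT nontumor for the 44 genes against median transcript length on a log axis, with symbols by role, for the deposited values (left) and with each library's trend on length and GC content taken out (right). Short translocation genes lie lowest on the left (Sec61g at -2.05), and on the right they remain below 0 while Ern1, Eif2ak3 and Edem3 remain above 1.

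Of 76 further genes of the pathway that were tested, none of them members, 16 rose and 45 fell in WT tumor (median -0.47). That is 80.3% in either direction, beside 79.8% of all genes, and so near the background. Asns, the asparagine synthetase induced by ATF4, had a mean of 44.3 ± 1.42 normalized counts in the WT tumor libraries against 1123 ± 271 in WT nontumor (SD, n = 2 each, -4.61, adjusted p = 1.34e-07). Mzb1, a partner of Hsp90b1 in B cells, fell by 1.63 and Srp9, of the signal recognition particle, by 1.28. Among the rises were Ppp1r15b at 0.99, the J-domain protein Dnajc1 at 1.17 and Uggt1, which checks the folding of glycoproteins, at 0.84. Without the length and GC trend Uggt1 stood at -0.45 and Ppp1r15b at 0.18, while Asns stood at -4.18. Xbp1, the target of IRE1, had 2027 ± 165 in WT tumor and 2732 ± 240 in WT nontumor (-0.43, adjusted p = 0.00162; -0.03 without the trend). Gene totals do not show whether Xbp1 was spliced. By group, 10 of 14 glycosylation genes fell and 2 rose, as did 8 and 3 of 13 targeting genes, 7 and 3 of 12 folding genes, 7 and 2 of 12 further degradation genes, 6 and 4 of 13 further response genes, and 7 and 2 of 12 transport genes.

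Plasma cells are rich in these transcripts, and their markers moved in the same libraries. Of 10 plasma cell markers 3 rose and 5 fell in WT tumor (median -0.33), and together they took 0.0898 ± 0.00255% of the reads in WT tumor against 0.163 ± 0.0130% in WT nontumor. Igj, the joining chain of secreted IgM, had 3900 and 3145 normalized counts in the WT tumor libraries against 28844 and 24528 in WT nontumor, and the receptor Tnfrsf17 had 4.76 and 3.15 in WT tumor against 32.4 and 24.7 in WT nontumor. The proteoglycan Sdc1 went the other way, at 535 and 484 in WT tumor and 317 and 316 in WT nontumor. The fall of the summed share lay in Igj, the most abundant of these markers in WT nontumor, and does not describe the list as a whole. The part of plasma cells in the member values was not tested. Mzb1, Derl3, Fkbp11 and Xbp1 stand both on this list and among the further pathway genes.

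The second comparison asks the same of BEBi3-/- mice, in libraries of 1 title prefix and the same pattern of X- and Y-linked genes. Changes were smaller. Here 9 members rose, 6 fell and 29 did not pass, while over all genes 14.1% rose and 18.5% fell (32.6% in either direction). The median was -0.09 for the members and -0.0077 for all genes. The share of members called is near the background, and 0 of the 15 calls held in every alternative. By role, 3 of 9 chaperones, 3 of 8 degradation genes and 3 of 6 sensors and transcription factors rose, while 4 of 10 translocation genes, 1 of 2 retrieval receptors and 1 of 2 lectin chaperones fell. No member differed by as much as 1 on the log2 scale, and the range ran from -0.57 to 0.57.

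Dnajb9 had 3084 and 3080 normalized counts in BEBi3-/- tumor against 2186 and 1984 in BEBi3-/- nontumor (0.57, SE 0.0965, limma adjusted p = 0.00497). Atf4 had 7020 and 6941 in BEBi3-/- tumor against 5466 and 4080 in BEBi3-/- nontumor (0.56, SE 0.131, limma adjusted p = 0.0162). Eif2ak3 had 2255 and 2424 in BEBi3-/- tumor against 1616 and 1754 in BEBi3-/- nontumor (0.47, adjusted p = 0.00559). The groups do not overlap for any of the 3, nor for 75.6% of all genes tested, and the nontumor libraries of Atf4 lie far apart. Creld2 had 793 and 777 in BEBi3-/- tumor against 602 and 605 in BEBi3-/- nontumor (0.38, adjusted p = 0.0127). The other rises were Atf6 (0.38), Syvn1 (0.34), Sel1l (0.31), Herpud1 (0.26) and Hyou1 (0.24). Of the neighbours of these genes in function, Hspa5 stood at 0.17 with 15563 and 15616 in BEBi3-/- tumor against 13679 and 14025 in BEBi3-/- nontumor (adjusted p = 0.0822), Hsp90b1 at 0.24 (0.0965) and Edem3 at 0.31 (0.0502), and none of them passed. Ern1 was at 0.20 with 95.7 and 88.0 in BEBi3-/- tumor against 76.7 and 82.8 in BEBi3-/- nontumor (0.486), and Ddit3 at -0.09.

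Sec61g had 3386 and 3334 normalized counts in BEBi3-/- tumor against 4586 and 5438 in BEBi3-/- nontumor (-0.57, SE 0.103, limma adjusted p = 0.00639). Sec61b fell by 0.46, Ssr1 by 0.30, Ssr2 by 0.30, Canx by 0.29 and Kdelr1 by 0.28. The other 6 translocation genes lay between -0.22 and -0.11 and did not pass. None of the 7 disulfide enzymes passed, the lowest being Prdx4 at -0.27 (adjusted p = 0.0797) and the highest Ero1lb at 0.17 (0.158).

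These calls rest on few libraries. Without BEBi3-/- tumor replicate 1, 1 member rose and 0 fell, and without BEBi3-/- tumor replicate 2 or with both averaged as 1 sample 0 rose and 0 fell. Without BEBi3-/- nontumor replicate 2, 3 rose and 1 fell. Without WT nontumor replicate 1 or WT nontumor replicate 2, which enter through the shared estimate of spread, 10 fell. With the length and GC trend removed, 7 members rose and 5 fell, beside 14.4% and 18.9% of all genes (33.3% in either direction). Of the 15 calls 10 held in the same direction. The 7 rises that held were all but Atf6 and Sel1l, and the 3 falls were Canx, Sec61g and Ssr1.

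**Figure D4:**
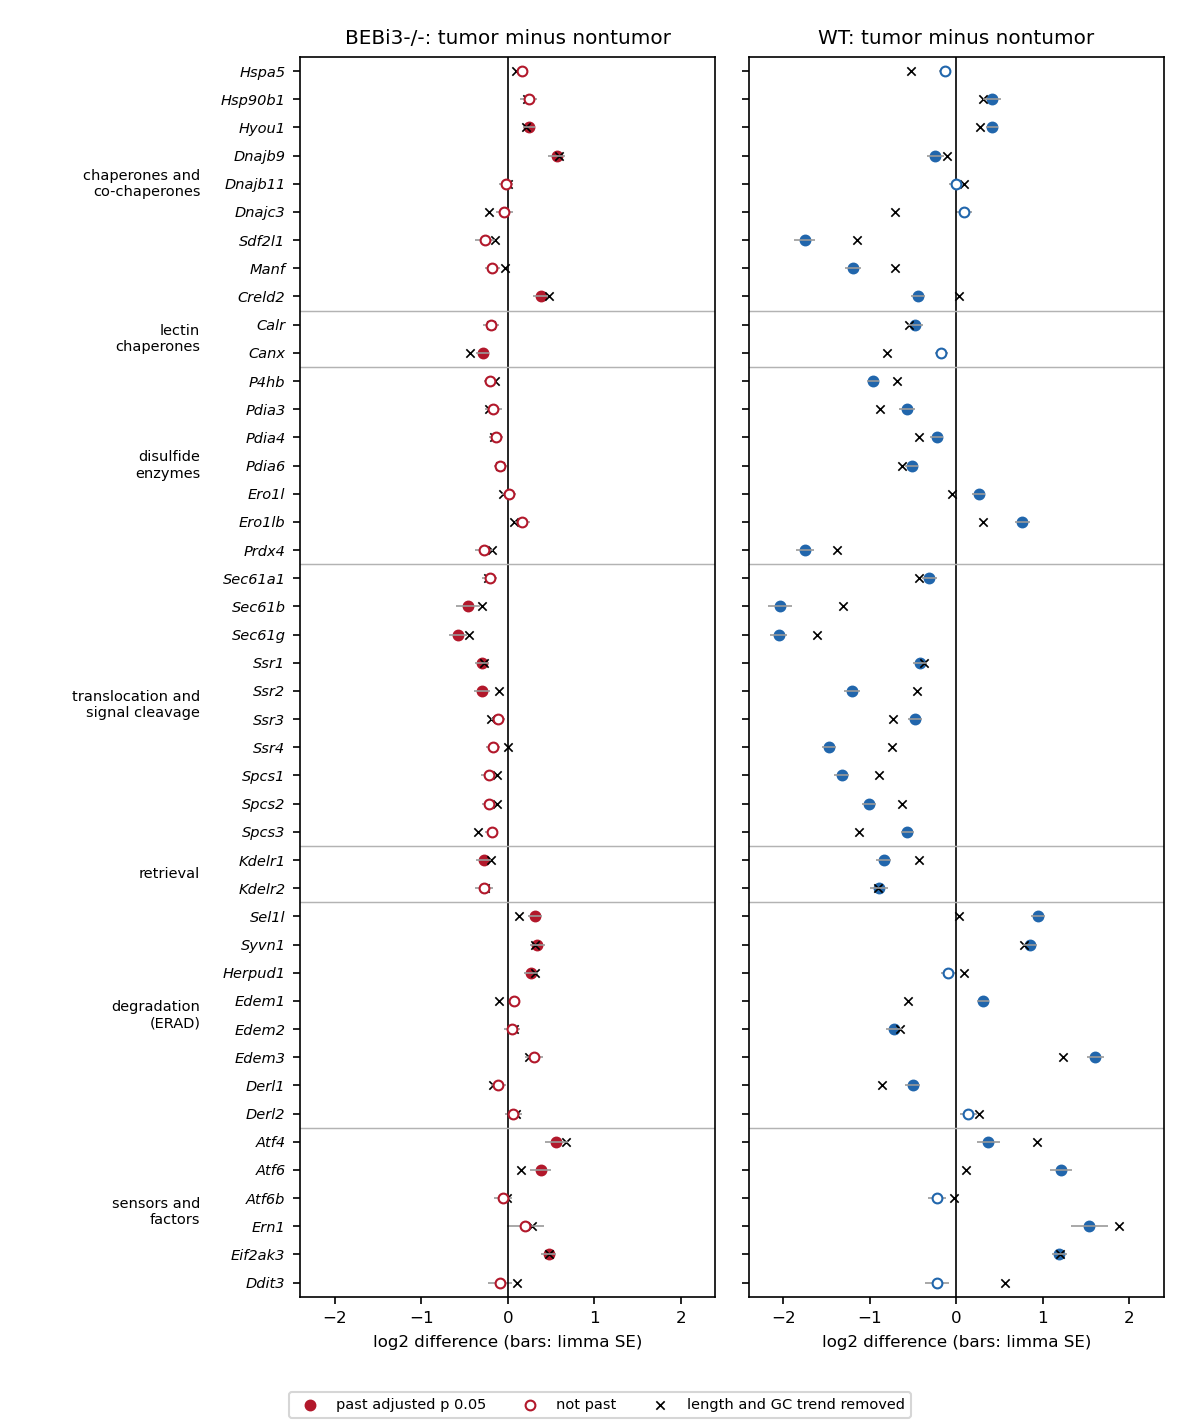
Log2 difference between tumor and nontumor libraries for each of the 44 genes, in BEBi3-/- (left, red) and WT (right, blue), with limma's standard error as bars, filled points past an adjusted p of 0.05 and crosses for values without the trend on length and GC content. The BEBi3-/- differences lie between -0.57 and 0.57 and those in WT between -2.05 and 1.61.

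Of the further pathway genes 7 of 76 rose and 16 fell in BEBi3-/- tumor. That is 30.3% in either direction, beside 32.6% of all genes, and so near the background. Txndc5, a disulfide isomerase abundant in plasma cells, rose by 0.54 (adjusted p = 0.000796), Derl3, a degradation factor of secretory cells, by 0.85 (0.0103) and Xbp1 by 0.40 (0.0131). Asns fell here also, to 166 ± 2.05 in BEBi3-/- tumor against 951 ± 15.8 in BEBi3-/- nontumor (-2.51, adjusted p = 2.89e-05), so that Atf4 rose and Asns fell in both genotypes. Ube2g2, a ubiquitin-conjugating enzyme of ER-associated degradation, fell by 0.34, and Srp54a, whose reads may be split with near-identical copies, by 0.36. Of the plasma cell markers 8 of 10 rose and 1 fell (median 0.55). They took 0.262 ± 0.000295% of the reads in BEBi3-/- tumor against 0.134 ± 0.00978% in BEBi3-/- nontumor, and Igj had 42735 and 42448 normalized counts in BEBi3-/- tumor against 18319 and 16540 in BEBi3-/- nontumor. Most of that rise in share lay in Igj. The part of plasma cells in the rises above was not tested.

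Between the genotypes without a tumor, 0 of the 44 members passed in limma, and 0 of 13011 genes did (0%). At an unadjusted p below 0.05 there were 5 members and 1049 genes. edgeR and DESeq2 on the recovered reads called 0 members each, and of all genes edgeR called 0 and DESeq2 21 (0.161%, with 0.0845% higher and 0.0769% lower). The member values ran from -0.38 for Dnajb9, with 2186 and 1984 normalized counts in BEBi3-/- nontumor against 2972 and 2475 in WT nontumor, to 0.29 for Syvn1, with 3774 and 3175 in BEBi3-/- nontumor against 2857 and 2811 in WT nontumor. Both stood at an adjusted p of 0.604. Their median was -0.04, against 0.0071 for all genes.

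Between the genotypes with a tumor, 23 members were higher in BEBi3-/- and 7 lower, with 14 not past the threshold. Over all genes 31.9% were higher and 28.6% lower (60.5% in either direction), and the medians were 0.24 for the members and -0.00051 for all genes. This comparison shares the WT tumor libraries with the first one. Higher were 8 of 10 translocation genes, both retrieval receptors, 4 of 7 disulfide enzymes, 5 of 9 chaperones and 3 of 8 degradation genes, together with Atf4, and lower were Ern1, Eif2ak3, Atf6, Edem1, Edem3, Sel1l and Ero1lb. Hspa5 had 15563 and 15616 normalized counts in BEBi3-/- tumor against 12132 and 12080 in WT tumor (0.36, SE 0.0681, limma adjusted p = 0.00182). Creld2 had 793 and 777 in BEBi3-/- tumor against 495 and 482 in WT tumor (0.68, adjusted p = 0.000194). Sdf2l1 had 712 and 735 in BEBi3-/- tumor against 346 and 282 in WT tumor (1.21, adjusted p = 8.13e-05). Libraries of the groups do not overlap for these 3 genes, as for 88.9% of all genes tested here. Edem3 had 946 and 933 in BEBi3-/- tumor against 1836 and 2144 in WT tumor (-1.08), and Eif2ak3 stood at -0.61 and Ern1 at -1.07. With the length and GC trend removed 26 members were higher and 5 lower, beside 29.2% and 23.3% of all genes (52.5% in either direction). Of the 30 calls 25 held in the same direction, and Hspa5 then stood at 0.67.

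Among the further pathway genes 38 of 76 were higher in BEBi3-/- tumor than in WT tumor and 13 lower. That is 67.1% in either direction, beside 60.5% of all genes. Mzb1 stood at 1.18, Asns at 1.89, Srp14, of the signal recognition particle, at 0.88 and Xbp1 at 0.75. Ppp1r15b (-0.67), Uggt1 (-0.55) and Sec31a, a coat protein of vesicles that leave the ER, (-0.43) were lower. Of the plasma cell markers 7 of 10 were higher and 1 was lower, with the shares of reads given above, and markers of macrophages (11 of 11), granulocytes (8 of 8), T cells (7 of 8) and erythroid cells (10 of 11) were higher too. Their median differences were 2.26, 2.13, 1.37 and 1.72, and the part of any of these cells in the member values was not tested.

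The tumor effect itself differed between the genotypes for 29 members (65.9%), judged by the interaction, which is the effect in BEBi3-/- minus that in WT. WT tumor enters it, so that sex and title prefix cannot be told apart from tumor in this contrast. The interaction was positive for 22 and negative for 7, while over all genes 27.5% were positive and 25.4% negative (52.9% in either direction). Without the length and GC trend it was positive for 25 and negative for 4, beside 24.6% and 20.6% of all genes (45.1% in either direction). Dnajb9 moved by 0.57 in BEBi3-/- and -0.24 in WT (interaction 0.81, SE 0.136, limma adjusted p = 0.00165), and Creld2 by 0.38 in BEBi3-/- and -0.45 in WT (0.83, adjusted p = 0.000776). These 2 were the only members past the threshold in opposite directions in the 2 genotypes, and without the length and GC trend the WT difference of neither was past it. The 6 genes Atf4, Atf6, Eif2ak3, Hyou1, Sel1l and Syvn1, rose in both genotypes, and 5 genes, Kdelr1, Sec61b, Sec61g, Ssr1 and Ssr2, fell in both. Without the length and GC trend Atf6 and Sel1l passed in neither genotype, and Kdelr1, Sec61b and Ssr2 did not pass in BEBi3-/-. For Atf4 the effects of 0.56 in BEBi3-/- and 0.37 in WT gave an interaction of 0.19 that was not past the threshold (adjusted p = 0.402), and without that trend it was -0.26 (adjusted p = 0.320). Asns and Xbp1 had interactions of 2.11 (adjusted p = 0.000264) and 0.83 (0.000976).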

How the data were processed

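Naive splenic B cell RNA was sequenced from stranded, paired-end mRNA libraries, per the labels. Per the submitters' processing notes, the authors used Salmon and DESeq2 with mm10; the sources used here give no versions or annotation. The deposited signal is a table of DESeq2 normalized counts with 1 value per gene symbol and library. Dividing each library's values by the step between them gave whole reads for 100% of values (tolerance 0.01). These recovered counts served edgeR 4.0.16 and DESeq2 1.42.0 as alternatives.

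Comparisons used limma 3.58.1 in R 4.3.3 on log2(normalized count + 1) of the 13011 genes averaging 10 or more, with 1 mean for each of 4 groups, a prior variance with a mean trend (degrees of freedom 4 residual and 4.64 prior), two-sided tests and Benjamini-Hochberg adjustment over all genes tested in each comparison. Log2 differences are on that scale and understate changes of low genes. Errors beside them are limma's standard errors, and other errors are SD over 2 libraries. No label states that libraries sharing a group are from different animals, so the spread behind the p-values may be technical. The BEBi3-/- tumor libraries were closer to each other (chi-square per degree of freedom 2.01) than those of other groups (13.1 to 20.3) but differed beyond counting noise, and were kept as 2.

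The members, lists and tests were chosen with earlier results of these data known. All members may be named. Of the further pathway genes, the 3 with the smallest p in each direction and Xbp1 may be named in each comparison, along with Ebi3 and markers of plasma cells. Cd79a, Ms4a1, Xist, Eif2s3y and the genes shared between lists were named outside that rule. Alternatives changed the pseudocount, filter, scaling, moderation, libraries used and tool, added a replicate block on the title number, or removed each library's additive trend on transcript length and GC content (mgcv 1.9.3, GENCODE M21, 98.9% of tested genes). The fits were tested on simulated data. Protein sequences were not used here.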

Additional observations from a re-analysis of the deposited data

Results flagged for a closer look

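The tumor effect in BEBi3-/- minus that in WT was past the threshold in 29 members (limma, adjusted p below 0.05), and the values here are that difference on the log2 scale. Over all genes tested 52.9% were past it (27.5% positive and 25.4% negative), so the counts by role below stand beside a wide shift. WT tumor enters all of them, so that sex and title prefix cannot be told apart from tumor in this contrast. Of the 10 translocation genes 8 were past the threshold, all positive, with Sec61b at 1.58, Sec61g at 1.48, Ssr4 at 1.31 and Spcs1 at 1.10, then Ssr2 at 0.91, Spcs2 at 0.79, Spcs3 at 0.38 and Ssr3 at 0.37. The retrieval receptors Kdelr2 and Kdelr1 stood at 0.62 and 0.56. Among disulfide enzymes Prdx4 stood at 1.47, P4hb at 0.76, Pdia6 at 0.43 and Pdia3 at 0.40, and the oxidase Ero1lb at -0.59. Of the 9 chaperones 5 were past the threshold, all positive, with Sdf2l1 at 1.49, Manf at 1.02, Creld2 at 0.83, Dnajb9 at 0.81 and Hspa5 at 0.30. Degradation genes were divided, with Edem2 at 0.77, Derl1 at 0.39 and Herpud1 at 0.35 against Syvn1 at -0.51, Sel1l at -0.63 and Edem3 at -1.30. The 3 sensors were negative, Eif2ak3 at -0.72, Atf6 at -0.83 and Ern1 at -1.33. Of the 29 differences 18 kept their call and direction in each of the 22 alternatives run, and the lost calls were most frequent in Pdia3 (11 of 22), Hspa5 (10) and Herpud1 (9).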

How the results depend on the processing

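In WT, 27 of the 36 member calls held in each of 23 alternatives, between the genotypes with a tumor 21 of 30 in each of 21, and in the tumor effect of BEBi3-/- 0 of 15. The member with the fewest reads, Ern1, had 54.9 normalized counts in its lowest library, and precision is limited by 2 libraries per group. With 1 library left out in turn, the median in WT ran from -0.37 to -0.26, that in BEBi3-/- from -0.11 to -0.019, that between genotypes without a tumor from -0.12 to -0.0051 and with one from 0.20 to 0.29, and that of the interaction from 0.25 to 0.34; in BEBi3-/- 0 to 11 members rose and 0 to 10 fell. Upper-quartile scaling took the medians to -0.36 in WT, 0.30 between genotypes with a tumor and 0.36 in the interaction, and quantile normalization to -0.00405 in BEBi3-/- and 0.34 between genotypes with a tumor. Without the length and GC trend they went to -0.45 in WT, 0.35 between genotypes with a tumor and 0.36 in the interaction, where 4 members in place of 7 were negative. In BEBi3-/-, 3 members fell with no filter on the mean, 3 rose and 1 fell without a trend in the prior variance, 11 fell in a fit of the compared libraries alone, and 0 rose and 0 fell with the tumor libraries averaged. The cause of these shifts was not tested.

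Taking out that trend was also where values changed sign, given first for those past the threshold with or without the trend. In WT, Edem1 went to -0.56, Dnajc3 to -0.71, Ero1l to -0.049, Creld2 to 0.026 and Ddit3 to 0.56. Between genotypes with a tumor Edem1 went to 0.40, Dnajc3 to 0.52, Canx to 0.35, Atf6 to 0.18 and Atf4 to -0.0025. In the interaction Edem1 went to 0.46, Dnajc3 to 0.49, Canx to 0.36, Sel1l to 0.10 and Atf6 to 0.042. Values that passed in neither changed sign too, and not all of them are listed. Herpud1 and Dnajb11 each went to 0.083 in WT. Edem1 went to -0.11, Ddit3 to 0.11, Ero1l to -0.057 and Dnajb11 to 0.0086 in BEBi3-/-. Ddit3 went to -0.34 and Ero1l to 0.050 between genotypes with a tumor, and Ddit3 to -0.45 and Atf4 to -0.26 in the interaction. The WT groups share the title numbers 7 and 8, and their deviations correlated at -0.256 across genes. This cannot decide whether the numbers pair the libraries. The replicate differences ran in opposite directions along length (-0.274 in WT tumor and 0.262 in WT nontumor). As a replicate block the title numbers left 12 rises and 23 falls in WT and 19 positive and 7 negative interactions. The crossed pairing, added after seeing the data, gave 12 rises and 26 falls in WT and 23 and 7 in the interaction.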
